A study of Mus musculus with 8 samples.

Results

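The data described here are the 1581 adenines of mouse chromosome 1 that were called as N6-methyladenine, of 17418 called adenines in all. They were taken as every entry on chromosome 1 in the 4 deposited lists of called bases, so the members were chosen by the call itself, at a call score of 20 or more. The KO L list gave 258 of its 3044 sites, WT L 402 of 3862, KO S 283 of 3370 and WT S 638 of 7142. The chromosome was singled out because its share differed between genotypes in earlier work on the same lists, so its overall share is given as a description. The other autosomes, chromosomes 2 to 19 without 3 repeat-rich windows of 100 kb, held 2316 sites in KO L, 2966 in WT L, 2606 in KO S and 5703 in WT S, 13591 in all.

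The cells were TT2 embryonic stem (ES) cells, a mouse line of mixed C57BL6 x CBA background, grown with no feeder layer and used between passages 5 and 10. KO cells carried a knockout of Alkbh1, and WT cells were the wild type of the same line. The labels give neither the kind of deletion nor the number of KO clones. In both genotypes DNA was recovered by native chromatin immunoprecipitation, that is without crosslinking, with a customized antibody to the histone variant H2A.X. The long (L) and the short (S) fragments were sequenced apart by single-molecule real-time (SMRT) sequencing. The 8 samples form 4 groups with 2 replicates each, but both replicates of a group point to 1 list. No spread between replicates can be had from these lists, and the labels do not say whether replicates were separate cultures. Each 95% interval below covers counting error only and treats sites as independent, so it is too narrow where sites cluster, and no p-value was computed. Alkbh1 lies on another chromosome, and a list of called bases cannot show whether the gene was deleted.

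N6-methyladenine is an adenine with a methyl group on its exocyclic amine. It is common in bacterial DNA, and its amount in mammalian DNA is debated. ALKBH1, a dioxygenase of the AlkB family, has been described as an enzyme that removes this mark in ES cells. In SMRT sequencing the polymerase can pause at a modified base. The IPD ratio (IPD, inter-pulse duration) sets the observed pause against the one predicted for unmodified DNA. A gain of a whole chromosome adds template evenly along its length. Mouse ES cell cultures are known to acquire such gains, of chromosomes 8 and 11 among others.

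The strongest calls show what a site looks like, and the 3 with the highest call score of each list are printed with their 41-base context (mm10, 5′ to 3′ on the strand of the call). The capital letter is the called adenine.
KO L chr1:126864103-126864143, plus strand: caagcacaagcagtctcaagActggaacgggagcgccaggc
KO L chr1:89542610-89542650, plus strand: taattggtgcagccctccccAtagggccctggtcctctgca
KO L chr1:15541993-15542033, minus strand: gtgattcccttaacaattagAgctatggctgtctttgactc
WT L chr1:42321468-42321508, minus strand: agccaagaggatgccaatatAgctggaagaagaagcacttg
WT L chr1:57779977-57780017, minus strand: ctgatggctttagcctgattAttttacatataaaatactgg
WT L chr1:77204860-77204900, plus strand: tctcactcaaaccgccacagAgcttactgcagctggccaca
KO S chr1:48893616-48893656, minus strand: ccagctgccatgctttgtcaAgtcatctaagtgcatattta
KO S chr1:84020877-84020917, minus strand: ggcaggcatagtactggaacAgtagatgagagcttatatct
KO S chr1:16031373-16031413, plus strand: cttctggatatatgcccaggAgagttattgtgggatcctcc
WT S chr1:149226986-149227026, minus strand: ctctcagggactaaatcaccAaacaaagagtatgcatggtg
WT S chr1:5994248-5994288, minus strand: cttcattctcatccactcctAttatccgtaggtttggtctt
WT S chr1:36720412-36720452, minus strand: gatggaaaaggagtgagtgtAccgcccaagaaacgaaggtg
The 3 KO L sites had scores of 46, 44 and 43, IPD ratios of 8.75, 4.29 and 2.85 and coverage of 15, 18 and 6. The 3 WT L sites had scores of 52, 51 and 50, IPD ratios of 14.49, 2.62 and 2.93 and coverage of 26, 8 and 17. In S, the KO sites had scores of 48, 47 and 43 at IPD ratios of 10.74, 4.50 and 3.51, and the WT sites had 53, 50 and 48 at 4.95, 6.15 and 4.81. A high score thus went with a long pause in some sites and with a modest one in others. The called adenine stood before A, C, G or T among these 12 contexts. Of the 12, the second KO L site lay in Agap1, which encodes an Arf GTPase-activating protein, and the third in Kcnb2, a voltage-gated potassium channel. One WT L site lay in Spats2l, 1 WT S site lay in 2 overlapping genes, Gm33533 and 4933424G06Rik, and the other 8 lay outside the genes of the RefSeq table. No one of the 12 positions was called in a second list.

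Chromosome 1 was dense in called adenines in all 4 lists, not in WT alone. It held 1.34 sites per Mb in KO L against 2.09 in WT L, and 1.47 in KO S against 3.32 in WT S. Set against the median density of chromosomes 2 to 19 of the same list, this was 1.35 times in KO L (exact Poisson interval 1.19 to 1.52) and 1.67 times in WT L (1.51 to 1.84). In S it was 1.33 times in KO (1.18 to 1.49) and 1.33 times in WT (1.23 to 1.44). Among the 19 autosomes chromosome 1 had rank 3 in KO L, rank 2 in WT L, and rank 3 in both S lists. The chromosomes that stood beside it were 11, with 1.70 and 1.71 times the median in KO L and WT L and 1.64 and 1.54 in KO S and WT S, and 8, with 1.51, 1.32, 1.63 and 1.44 in the same lists. The lists say nothing of depth at uncalled bases, so more template, better read coverage and more modification cannot be told apart in a density.

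**Figure D1:**
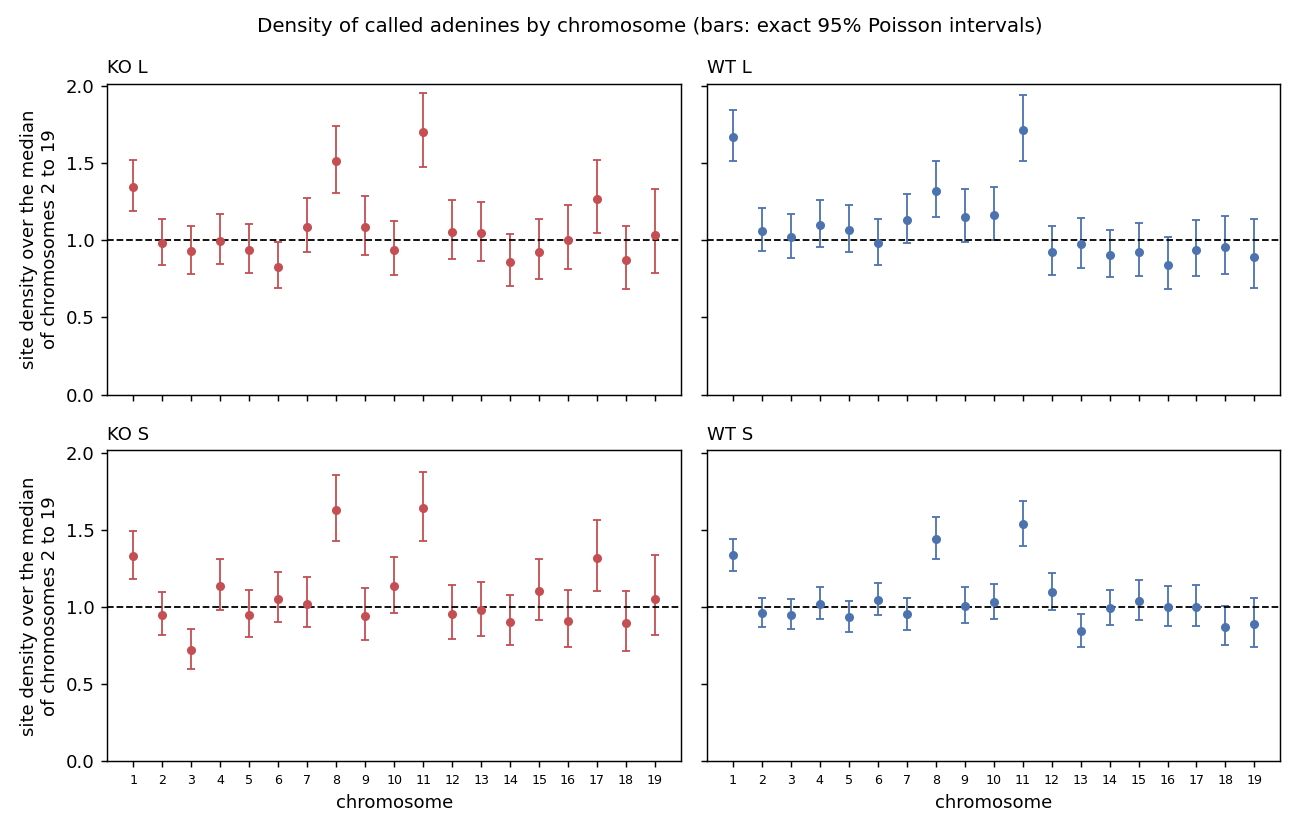
Site density of each autosome (x axis, chromosome number) over the median of chromosomes 2 to 19 (y axis) in the 4 lists, KO left of WT, with exact 95% Poisson intervals. Chromosomes 1, 8 and 11 lie above the others in each panel, with chromosome 17 close to chromosome 1 in the KO panels. Chromosome 1 reaches 1.67 in WT L against 1.33 to 1.35 in the other 3 lists.

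The excess did not come from a single place, but it did not cover the whole length in every list. In KO L the first of 3 equal segments stood at 1.00 times the mean density of the other autosomes (0.772 to 1.27). Of the 39 bins of 5 Mb on chromosome 1, 23 (59.0%) in KO L held more sites than the median bin of chromosomes 2 to 19, against 39.4% of the bins of those chromosomes. In WT L it was 30 of 39 (76.9%) against 45.8%, in KO S 26 of 39 (66.7%) against 49.1%, and in WT S 25 of 39 (64.1%) against 45.8%. A bin of chromosome 1 held 1 to 12 sites in KO L with a median of 6, and 3 to 22 in WT L with a median of 10. In S it held 0 to 15 sites in KO with a median of 7, and 3 to 26 in WT with a median of 16. The lone empty bin was that of KO S between 160 and 165 Mb. The richest window of 100 kb on the chromosome held 8 sites over the 4 lists, against 30 in the richest one of the other autosomes. Both windows with 8 sites are gene regions, one at the Ugt1a cluster of glucuronosyltransferases (88200001 to 88300000) and the other at Wdr26 (181200001 to 181300000).

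**Figure D2:**
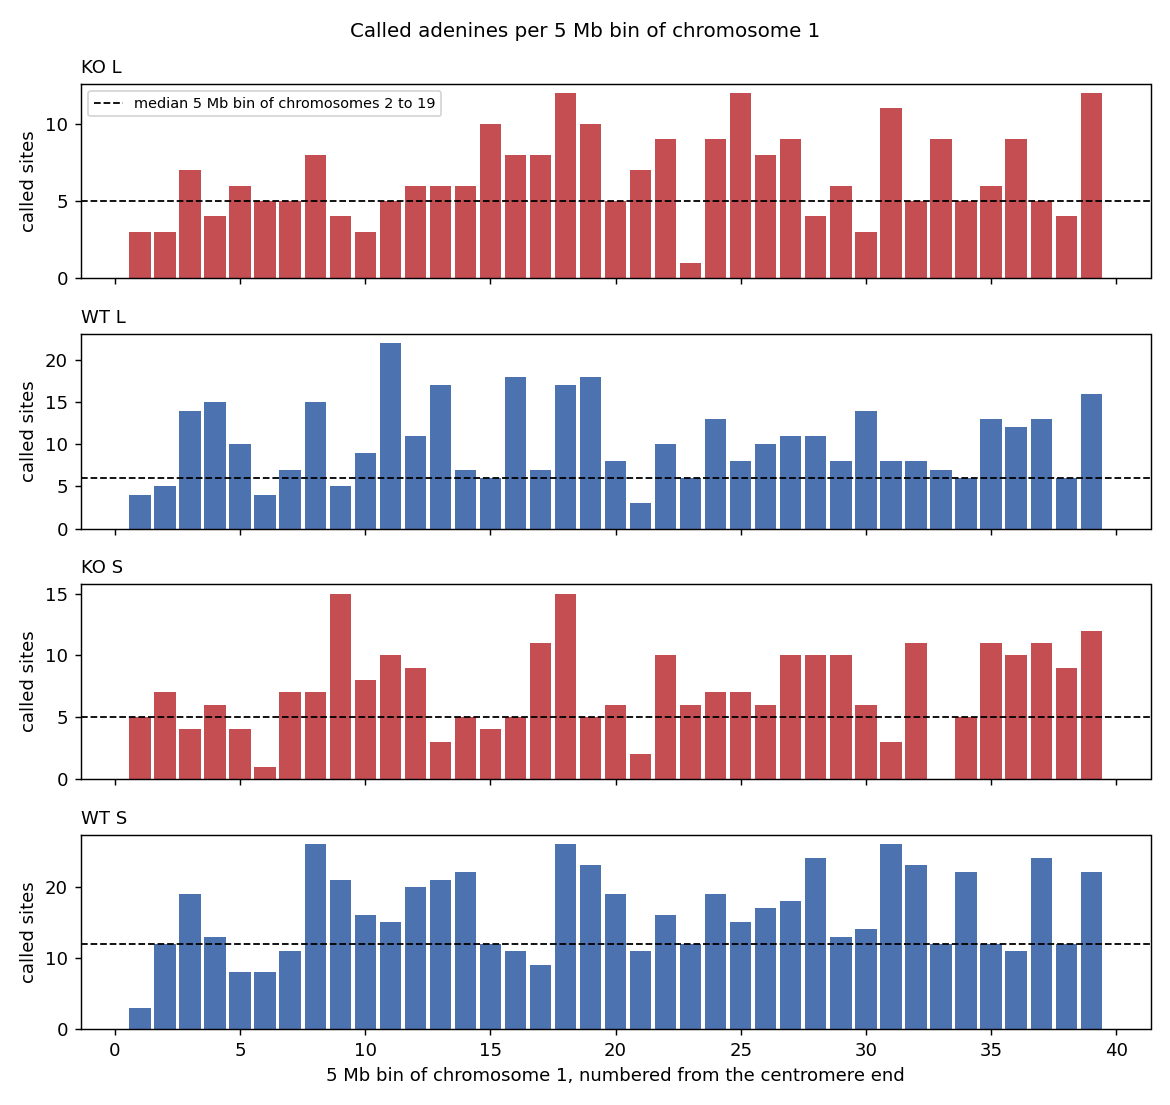
Called adenines (y axis) in each 5 Mb bin of chromosome 1 (x axis, numbered from the centromere end) in KO L, WT L, KO S and WT S, with the median bin of chromosomes 2 to 19 dashed. The bars stand above the dashed line in 23, 30, 26 and 25 of 39 bins, spread over the whole length; the first bin is only partly assembled.

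The KO list held relatively fewer of its sites on chromosome 1 than the WT list in L, and not detectably so in S. Chromosome 1 took 10.0% of the autosomal sites of KO L (exact interval 8.89% to 11.2%) and 11.9% of those of WT L (10.9% to 13.1%). It took 9.80% in KO S (8.74% to 10.9%) and 10.1% in WT S (9.33% to 10.8%). The odds ratio, KO over WT, was 0.82 in L (exact conditional interval 0.69 to 0.97), the lowest of the 19 autosomes, and 0.97 in S (0.83 to 1.13). Intervals that left out 1 were found for 2 of 19 autosomes in each part (10.5%), chromosome 17 at 1.42 beside chromosome 1 in L, and chromosomes 3 at 0.73 and 17 at 1.30 in S. With sites under 1 kb apart counted as 1 place, the odds ratio of chromosome 1 in L was 0.866 with an interval that includes 1 (0.722 to 1.04), so the difference is not beyond error once neighbouring calls are joined. At a score of 30 or more it was 0.668 (0.424 to 1.04). Chromosome 10 had nearly the same odds ratio in L (0.83, 0.65 to 1.06). The ratio of the L odds ratio to the S one was 0.847 (0.678 to 1.06, Woolf interval), so a difference between the parts was not detectable. Within a genotype, the odds of lying on chromosome 1 in L over S were 1.03 in KO (0.855 to 1.23) and 1.21 in WT (1.06 to 1.39), or 1.15 (0.994 to 1.33) in WT with neighbouring sites joined.

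**Figure D3:**
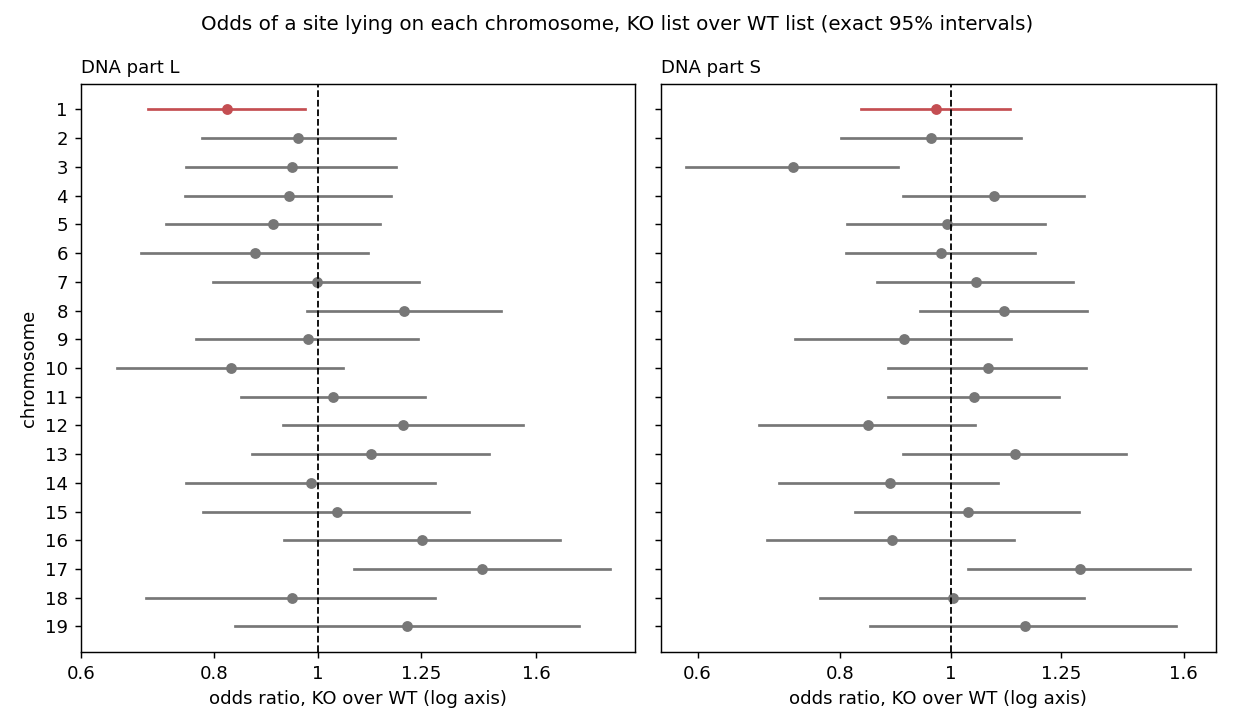
Odds ratio of lying on each autosome, KO list over WT list (x axis, log scale), by chromosome (y axis) in parts L and S, with exact 95% intervals and chromosome 1 in red. Chromosome 1 is at 0.82 in L, the lowest value there, and at 0.97 in S.

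The KO over WT difference in L was larger among sites of higher coverage. Median coverage at the called bases of chromosome 1 was 9 in KO L, 10 in WT L, 10 in KO S and 13 in WT S, against 10, 10, 11 and 14 on the other autosomes. Sites were split by coverage after the values had been seen, at 11, the lowest coverage at which a modified fraction was deposited. Among sites with coverage of 6 to 10, the odds ratio of chromosome 1 in L was 0.971 (0.772 to 1.22, 155 KO and 203 WT sites). Among sites with coverage of 11 or more it was 0.669 (0.515 to 0.865, 103 KO and 199 WT sites). The ratio of these values was 0.688 (0.492 to 0.962), and 0.760 (0.529 to 1.09) with neighbouring sites joined, when the interval includes 1. In S the same values were 0.939 (0.747 to 1.18) at low coverage and 0.961 (0.780 to 1.18) at high coverage, with a ratio of 1.02 (0.759 to 1.38).

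Finer classes divide the same sites again, so they describe the split and are no separate support for it. They were not recounted with neighbouring sites joined. In KO L the density of chromosome 1 over that of chromosomes 2 to 19 was 1.28, 1.56, 1.14, 1.18 and 1.02 at coverage of 6 to 7, 8 to 10, 11 to 15, 16 to 24 and 25 to 50. In WT L it was 1.30, 1.59, 1.47, 1.95 and 2.71 in the same classes. The last class holds 7 KO and 20 WT sites of chromosome 1, and its intervals were 0.397 to 2.20 in KO L and 1.57 to 4.44 in WT L. Below coverage of 11 the genotypes therefore gave nearly the same values, and above it every WT L value lay over the KO L one, although their intervals overlap in each class. In the S lists the values ran from 1.05 to 1.33 in KO and from 1.09 to 1.42 in WT, with WT above KO in some classes and below it in another. The other dense chromosomes took other values. At coverage of 11 or more chromosome 1 stood at 1.71 times the median in WT L, rank 1 of 19, chromosome 8 at 1.03 and chromosome 11 at 1.56. In KO L the values were then 1.17 for chromosome 1, rank 5 of 19, 1.504 for chromosome 8 and 1.73 for chromosome 11. At 4 stricter settings the density of chromosome 1 in a KO list was slightly below the median of the other autosomes, and at 2 others it was 1.23 with an interval that includes 1. At coverage of 11 or more the KO L interval also included 1 (0.954 to 1.42), and so did that of WT S at coverage of 25 or more (1.15, 0.896 to 1.46). At coverage of 25 or more it was 0.864 in KO L and 0.957 in KO S. It was 0.937 in KO L at an identification score of 20 or more, and 0.988 in KO S at a call score of 30 or more, each with an interval that spans 1. In WT L it was 2.59 (1.59 to 4.01) at coverage of 25 or more and 2.24 (1.63 to 3.00) at an identification score of 20 or more. Whether depth sets the difference between the genotypes was not tested, because the coverage of uncalled bases is not listed.

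**Figure D4:**
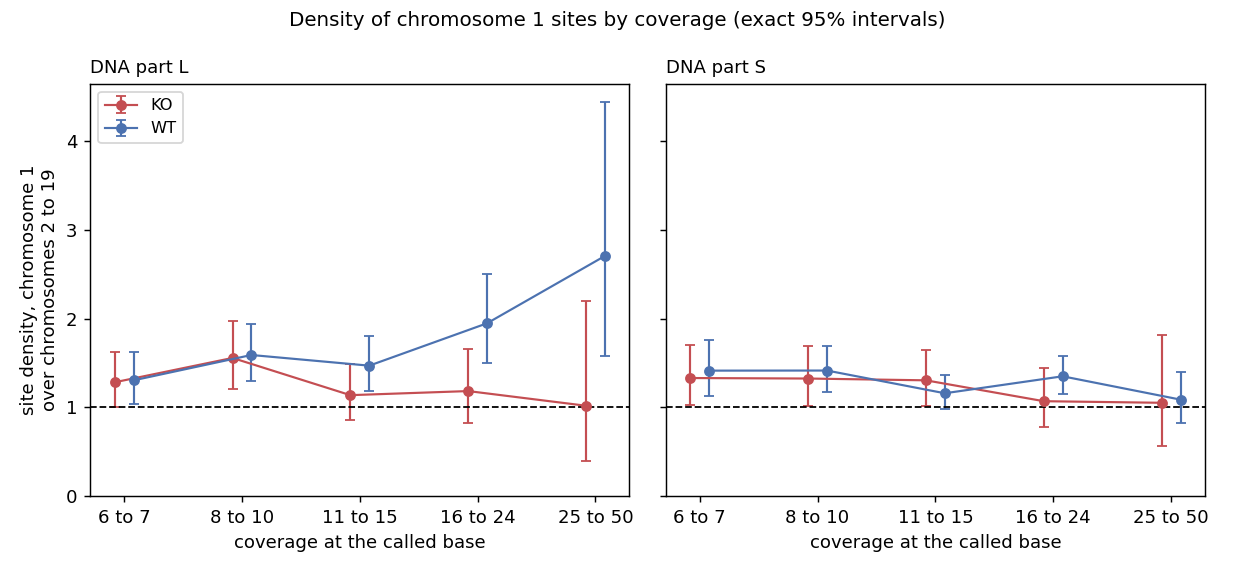
Density of called sites on chromosome 1 over that on chromosomes 2 to 19 (y axis) by coverage at the called base (x axis) in L and S, KO red and WT blue, with exact 95% intervals. In L the KO points run between 1.02 and 1.56 and the WT points reach 2.71 in the deepest class, and in both parts the KO and WT intervals overlap in every class.

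Evenness along the chromosome was examined in 4 ways, each with KO and WT sites of the same bin so that gene content and mappability of a bin enter both lists. First, the KO share of KO and WT sites was 39.1% over chromosome 1 in L and 30.7% in S, against 43.8% and 31.4% on the other autosomes. In L, 1 of 39 bins had an exact interval that left out the share of the chromosome, and it was low in KO. The background on chromosomes 2 to 19 was 3.98% of bins, 2.43% low and 1.55% high in KO. In S, 3 of 39 bins did, 1 high and 2 low in KO, against a background of 5.97%, 4.42% high and 1.55% low. With at most 29 sites per bin in L and 41 in S, a bin had to be far from the mean to be called. Second, the spread of the KO share over bins, as Pearson's chi-square per degree of freedom, was 1.04 in L and 1.40 in S. The other autosomes had 0.431 to 1.78 with a median of 1.24 in L, and 0.894 to 2.62 with a median of 1.39 in S. Counted from the even end, chromosome 1 had rank 8 of 19 in L and rank 10 in S, near the middle of the order in both. With runs of sites under 1 kb apart counted as 1 place, the S value was 0.906, and the called bins were 0 in L and 1 in S.

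Next, single bins were set against the KO share of the other autosomes. It was undercut in 26 of 39 bins in L, against 52.0% of the bins of chromosomes 2 to 19, and in 18 of 39 in S, against 54.9%. The count in L follows from the share for which the chromosome was chosen and does not test evenness. Of the 39 bins, 18 in L and 16 in S lay below the chromosome's own share, 7 of them in both parts. In both parts 12 bins lay at or above it. The same overlap was not counted on the other autosomes, so these numbers are given as counts alone. Among bins with at least 10 sites in the part, the 3 of L with the lowest KO share were 145 to 150 Mb (3 KO and 14 WT sites), 50 to 55 Mb (5 and 22) and 15 to 20 Mb (4 and 15). The 3 with the highest were 100 to 105 Mb (7 KO and 3 WT sites), 70 to 75 Mb (10 and 6) and 120 to 125 Mb (12 and 8). Their values in S did not follow those in L. The bin at 100 to 105 Mb, highest in L with a KO share of 70.0%, had 15.4% in S (2 KO and 11 WT sites). The bin at 160 to 165 Mb, with 0 KO and 12 WT sites in S, had 9 KO and 7 WT sites in L. In S the lowest KO shares among such bins were at 160 to 165, 150 to 155 and 60 to 65 Mb. They were 0%, 10.3% and 12.5%, against 56.25%, 57.9% and 26.1% in L. The highest were at 80 to 85, 170 to 175 and 175 to 180 Mb. They were 55.0%, 47.8% and 47.6%, against 53.3%, 31.6% and 42.9% in L. Some of these bins thus lay on the same side of the chromosome's share in both parts, and others did not.

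**Figure D5:**
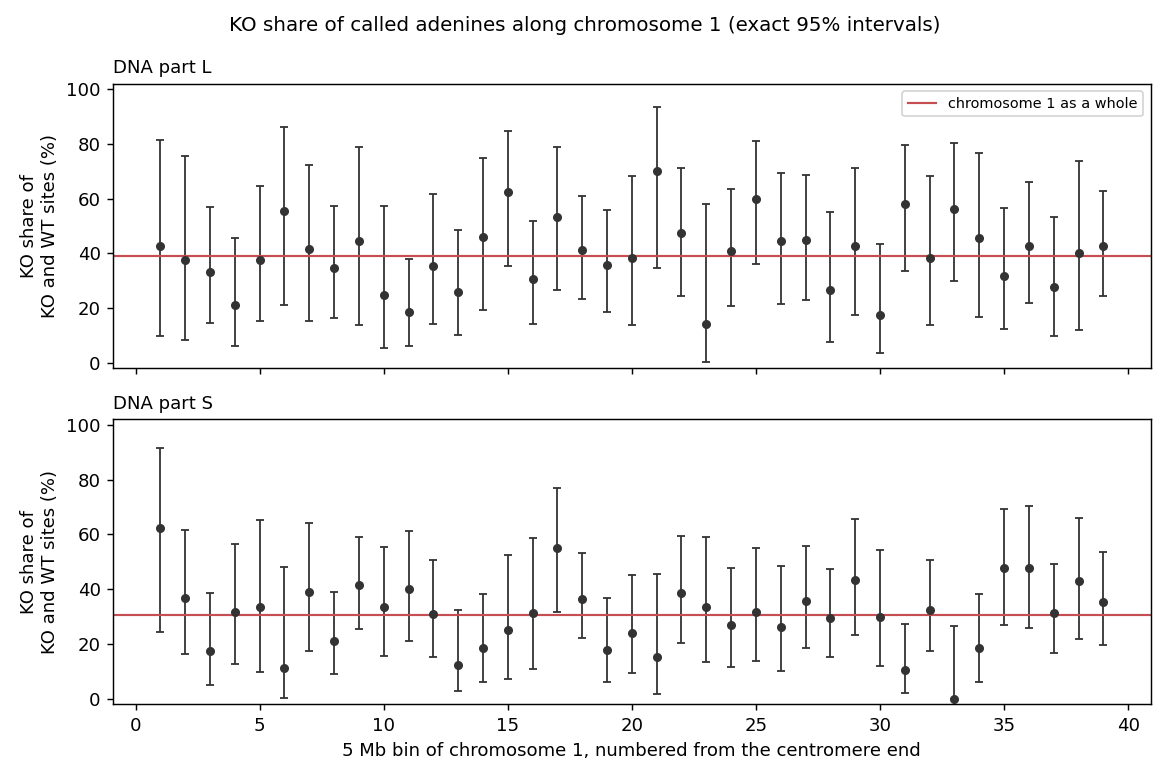
KO share of KO and WT sites (y axis, percent) in each 5 Mb bin of chromosome 1 (x axis, numbered from the centromere end), parts L and S, with exact 95% intervals. The red line is the share of the whole chromosome, 39.1% in L and 30.7% in S, and 1 interval in L and 3 in S leave it out.

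Last, the chromosome was divided into longer segments, first 2 and then 3 of equal length. With 2 segments, the KO over WT odds in the distal one over those in the proximal one were 1.23 in L (0.888 to 1.70) and 1.03 in S (0.772 to 1.38). With 3 segments, the odds ratio against chromosomes 2 to 19 in L was 0.603 (0.440 to 0.820) in the first, 1.02 (0.776 to 1.33) in the second and 0.854 (0.641 to 1.13) in the last. In S it was 0.975, 0.914 and 1.02. The low value of the first segment came with a KO density at the level of the other autosomes. KO L stood there at 1.00 times their mean density (0.772 to 1.27), against 1.66 in WT L (1.39 to 1.96). In the second segment KO L and WT L were nearly equal, at 1.54 (1.26 to 1.86) and 1.51 (1.26 to 1.79), and in the last they were 1.29 (1.03 to 1.59) and 1.51 (1.26 to 1.79). At coverage of 11 or more WT L held 1.73, 1.65 and 1.68 times the density of the other autosomes in the 3 segments, and KO L held 0.950, 1.42 and 1.00. Between the 2 longer segments, proximal and distal, a difference in L was thus not detectable (0.888 to 1.70). Among the 3 shorter ones, the KO share of the first in L was 32.0%. Its interval (25.7% to 38.9%) narrowly leaves out the 39.1% of the whole chromosome, which includes this segment and was chosen with its share known. The 3 segments were not recounted with neighbouring sites joined, so the value is given as a description. The intervals of the second (37.9% to 50.9%) and the last (33.5% to 46.8%) include 39.1%. In L the odds ratio intervals of the second and the last of 3 segments each hold both 1 and the 0.82 of the whole chromosome. The WT excess can be neither shown nor excluded in those segments, and only the interval of the first (0.440 to 0.820) leaves out 1. The 3 segments were not tested against each other. No value here gives a copy number.

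Median IPD ratios on chromosome 1 did not differ detectably from those elsewhere. The median IPD ratio was 2.605 in KO L, 2.625 in WT L, 2.77 in KO S and 2.64 in WT S, against 2.67, 2.66, 2.76 and 2.63 on the other autosomes. The differences from the other autosomes ran from -0.065 to 0.01, and each interval included 0. Among sites with an identification score of 20 or more, the difference in WT L was -0.49 (-0.69 to -0.28). The median call score was 25 in WT S and 24 in each of the other 3 lists. The modified fraction exists only where coverage reached 11, and its median was 63.3% in KO L (103 sites), 73.2% in WT L (199), 80.1% in KO S (140) and 74.3% in WT S (409). On the other autosomes it was 71.05%, 74.2%, 78.7% and 72.1% in the same order. The chromosome 1 median of KO L had an interval of 51.9% to 70.9%, which overlaps that of WT L (67.8% to 77.1%) and that of KO L elsewhere (68.4% to 73.7%). The share of sites with an identification score of 20 or more, which states the fit to N6-methyladenine in particular, was 6.59% in KO L (3.88% to 10.3%) and 10.9% in WT L (8.07% to 14.4%), against 8.94% and 8.66% on the other autosomes. In S it was 10.95% in KO (7.57% to 15.2%) and 13.8% in WT (11.2% to 16.7%).

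Some of the 21 sequence contexts compared on chromosome 1 followed a common pattern in the 4 lists. The called adenine stood before T in 27.1% of sites in KO L, 29.9% in WT L, 27.6% in KO S and 29.2% in WT S. The local background, taken over the uncalled adenines inside the printed 41 bases, was 22.8%, 20.1%, 21.3% and 21.9%, below the interval of the sites in all lists but KO L. The triplet CAT, called base in the middle, was the context of 10.5%, 10.4%, 8.83% and 10.0% of sites in the same order of lists, against a local background of 5.76%, 4.65%, 5.25% and 5.07%, which lay below the interval in each list. Called adenines before C were fewer than in the background, at 15.5%, 12.7%, 14.8% and 13.2% against 18.4%, 17.6%, 17.3% and 17.8%, outside the interval in both WT lists and inside it in both KO lists. Plus strand calls made up 46.6% to 54.0% of the sites of a list.

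The KO over WT difference in the AG dinucleotide, called base first, was not detectably different on chromosome 1 and elsewhere. AG made up 23.7% of KO S and 22.1% of WT S sites on chromosome 1, a difference of 1.57 percentage points (Newcombe interval -4.12 to 7.67). On the other autosomes it was 27.9% in KO S and 20.8% in WT S, a difference of 7.09 points (5.09 to 9.12). The ratio of the 2 odds ratios was 0.743 (0.524 to 1.05), which includes 1. In L the shares on chromosome 1 were 22.9% in KO and 21.1% in WT. For AGG, picked out after the values of 21 contexts had been seen, KO S had 5.65% on chromosome 1 and 10.6% on the other autosomes, a difference of -4.94 points (-7.41 to -1.42), the second lowest of 19 autosomes. The KO over WT comparison of AGG in S again gave a ratio of odds ratios that included 1, 0.565 (0.305 to 1.05).

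No adenine of chromosome 1 was called in more than 1 list. All 1581 sites are different positions, and none lay within 10 bases of a site of the compared list. The approximate upper limit for a count of 0 was taken as 3 over the number of sites of the first list. It was 1.16% for KO L against WT L, 1.06% for KO S against WT S, 1.16% for KO L against KO S and 0.746% for WT L against WT S. The other autosomes had 7 of 2316, 9 of 2606, 7 of 2316 and 5 of 2966 shared positions in those pairs, so shared sites were rare there too. Neighbours inside a list were common. Of chromosome 1 sites, 22.5% in KO L, 27.1% in WT L, 26.1% in KO S and 27.6% in WT S had another site of the same list within 1 kb. Counted as places more than 1 kb apart, the lists held 227, 340, 242 and 539.

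Runs of 4 or more sites under 1 kb apart numbered 1 in KO L, 3 in WT L, 2 in KO S and 7 in WT S. The other autosomes had 20, 14, 13 and 51 such runs among their 2316, 2966, 2606 and 5703 sites. Runs were defined inside a list, so each holds calls of 1 list by construction. The runs of chromosome 1 had 0 sites of the 3 other lists within 1 kb. Such neighbours were rare for all sites of the chromosome, at 0% to 1.41% in the pairs of lists compared, so 0 is not particular to runs. Contexts from 5 of them are shown because they show how calls lie together; capitals mark every base called in that run, and a capital T is an adenine called on the opposite strand.
KO L chr1:178298917-178298957, plus strand: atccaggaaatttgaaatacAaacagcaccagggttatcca
WT L chr1:181203187-181203227, minus strand: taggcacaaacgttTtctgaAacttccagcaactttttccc
KO S chr1:140909710-140909750, minus strand: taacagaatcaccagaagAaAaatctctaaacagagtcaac
WT S chr1:65145063-65145103, minus strand: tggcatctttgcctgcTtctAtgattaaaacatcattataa
WT S chr1:193926407-193926447, minus strand: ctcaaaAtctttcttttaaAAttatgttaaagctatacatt
The KO L run had 4 sites over 628 bases in Gm46174, a long noncoding RNA gene, with coverage of 8 to 11. The WT L run shown has the most sites on the chromosome, 6 over 256 bases of Wdr26, with IPD ratios of 2.27 to 2.88 and coverage of 12 to 17. The KO S run had 4 sites over 161 bases outside annotated genes at coverage of 23 to 26, with IPD ratios of 1.71 to 2.28. The 2 WT S runs shown had 5 sites over 183 bases and 4 over 159 bases, the second with an IPD ratio of up to 6.99. The bases next to the called ones differ between these runs and include stretches of A.

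On chromosome 1 the KO S list held fewer of its sites inside genes than the WT S list, while the L lists had nearly the same share. RefSeq genes cover 47.6% of the span of chromosome 1 and 49.6% of that of the other autosomes. Of chromosome 1 sites, 50.8% lay in a gene in KO L (44.5% to 57.0%) and 51.0% in WT L (46.0% to 56.0%). In S it was 43.5% in KO (37.6% to 49.5%) and 52.8% in WT (48.9% to 56.8%). On the other autosomes the shares were 52.2% in KO L, 54.2% in WT L, 53.1% in KO S and 53.7% in WT S. The KO S value on chromosome 1 minus that of KO S elsewhere was -9.61 points (-15.6 to -3.47), the second lowest of the 19 autosomes. KO minus WT in S was -9.36 points on chromosome 1 (-16.2 to -2.36) and -0.62 points on the other autosomes (-2.93 to 1.69). The gene share was 1 of 3 traits compared in 2 parts and was picked out after its values were seen. With sites under 1 kb apart counted as 1, the interval of the ratio of odds ratios included 1 (0.756, 0.549 to 1.04), as it did at a score of 30 or more (0.829, 0.407 to 1.69). In L that ratio was 1.07 (0.771 to 1.49), but 1.67 (1.01 to 2.76) at coverage of 11 or more and 2.45 (1.02 to 5.84) at a score of 30 or more, in the direction opposite to S.

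A site fell in 457 of the 2930 chromosome 1 genes, 350 of them protein-coding and 85 long noncoding RNA genes. Sites in all 4 lists occurred in 9 genes, and 22 genes held 5 or more. The highest number was 10, in Tnr, which encodes the extracellular matrix protein tenascin-R, with 4 sites in KO S and 4 in WT S, and 0 in KO L and 2 in WT L. Length went with this count. Genes of over 300 kb numbered 51, of which 49 held a site, and they took 13.6% of sites in KO L, 12.7% in WT L, 10.6% in KO S and 9.87% in WT S for 14.1% of the span. After Tnr the highest counts were in Erbb4 (9), a neuregulin receptor, and Smyd3 (9), a lysine methyltransferase.

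Genes that held at least 3 sites over both lists of a part were ordered by the excess of one genotype. In L there were 25 such genes, 9 with more sites in KO and 15 with more in WT. In S there were 41, 7 with more in KO and 32 with more in WT, in lists of 283 KO and 638 WT sites. Numbers per gene are too small for a comparison, and they are given as counts. More sites in KO L were found in Gm46174 (4 and 0 in WT L), in Ccdc115 (3 and 0), whose product takes part in assembly of the vacuolar proton pump, and in the lncRNA gene Gm29185 (3 and 0). Erbb4 (4 and 1) and Adgrb3 (3 and 0), an adhesion G protein-coupled receptor, completed the 5. The 3 sites of Ccdc115 lay within 649 bases, those of Adgrb3 over 98515 bases. More sites in WT L were found in Wdr26 (0 in KO L and 6 in WT L), a subunit of an E3 ubiquitin ligase, in Gli2 (0 and 4), a transcription factor of Hedgehog signalling, and in Brinp3 (0 and 4). Pkhd1 (0 and 4), the fibrocystin gene, and Dgkd (0 and 3), a diacylglycerol kinase, followed, and the 3 Dgkd sites lay within 6 bases.

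In S the genes with more sites in KO were Alkal1 (3 and 0 in WT S), a ligand of the ALK receptor, and Dner (3 and 0), a neuronal receptor with EGF repeats. Sphkap, a kinase A anchoring protein, and Plcl1, a phospholipase C-like protein, each had 2 sites in KO S and 1 in WT S. The genes with more in WT were Tfap2d (0 in KO S and 5 in WT S), a transcription factor of the AP-2 family, and Rasal2 (0 and 5), a Ras GTPase-activating protein. Lancl1 (0 and 4), Fam117b (1 and 5) and 1700019D03Rik (0 and 4) followed. Of the genes named for L or S, 4 (Gm29185, Erbb4, Gli2 and Dner) had sites in the other part too. For Gli2 they came to 0 in KO S against 2 in WT S, so its sites were called in WT in both parts.

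Sites near genes of 5 functional groups were counted as well, with 5 kb on each side of a gene. Counted so, 648 of all 2930 chromosome 1 genes (22.1%) held a site. Of 21 genes of development and pluripotency 10 did, with 5 sites in KO L and 9 in WT L, and 2 in KO S and 16 in WT S. The whole chromosome held 258 and 402 sites in KO L and WT L, and 283 and 638 in KO S and WT S. Of the 16 sites in WT S, 5 were at Tfap2d and 4 at Eya1, the latter in 1 run of 155 bases. A difference between genotypes at these genes was not tested. En1, a homeobox gene of brain patterning, had 3 in KO L and 0 in WT L. Eya1, a transcriptional coactivator of organ development, had 0 in KO S and 4 in WT S. Nr5a2, an orphan nuclear receptor of early embryos, had 1 in WT S and 0 in the others. Of 10 DNA repair and damage genes 3 held a site, among them Parp1 (1 in KO S and 0 in WT S) and the nuclease gene Ercc5 (0 in KO S and 3 in WT S). Of 12 interferon and immune genes 4 did, among them Stat4, a transcription factor of cytokine signalling (0 in KO L and 2 in WT L). Of 9 structural and adhesion genes 5 did. Zdbf2, an imprinted gene, had 1 site in KO S and 0 in WT S. The lists were not matched for length to the other genes, so these shares are not comparable with that of all genes.

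Sites at gene starts were counted last. Within 300 bases around the start (250 before and 50 after, RefSeq, GRCm38.p6), the 2014 promoter windows of 1644 genes held 10 sites. This is 0.633% of the 1581 sites (0.304% to 1.16%), in windows that cover 0.288% of the span. They belonged to KO L at En1, at Gm31197 and Gm31254, which share 1 site, at Neu4, a sialidase gene, and at Usp40, and to WT L at Tnr with 2 sites. Gm39732 had 2 in KO S, and Gm19705 and Gm51627 had 1 each in WT S. Where a promoter sequence covered a site, the deposited context matched it in 11 of 11 pairs of site and promoter, as it should on the same build.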

How the data were processed

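The samples were H2A.X native ChIP DNA of Alkbh1 KO and WT TT2 ES cells, 8 samples in 4 groups of genotype and DNA part. The 2 replicates of each group share 1 list, per the labels, so 4 lists were used. Per the submitters' processing notes, coordinates are on mm10. The caller's version, the aligner and the filters were not given in the sources used here.

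A line of a deposited list is 1 called adenine. The deposited score is the call score, with 20 the lowest value present, and the identification score is a second deposited score; neither scale is stated. The coverage was deposited by the authors as an unnormalized signal of passes or reads, with 6 the lowest value. The IPD ratio was deposited by the authors as a linear ratio. The modified fraction is a deposited fraction, printed here in percent. Values were used unfiltered. Lists hold called bases alone, so total depth is unknown.

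Members, gene lists and tests were chosen with earlier results of these data known. Windows left out were 3.0 to 3.1 Mb of chromosome 9, 19.4 to 19.5 Mb of chromosome 14 and 98.6 to 98.7 Mb of chromosome 2. Chromosome span ran between the outermost bases with a site or gene (3066511 to 195291439 on chromosome 1), since lengths are not listed. Genes came from RefSeq GRCm38.p6 by start and end, without exons; rows of unplaced scaffolds were dropped. Shares have exact Clopper-Pearson intervals, differences Newcombe intervals, odds ratios exact conditional or Woolf intervals, medians order-statistic intervals and densities exact Poisson intervals, all at 95%. A bin was called when its interval left out the share of its chromosome. Genes named were the 5 per part and direction with the largest excess among genes with 3 or more sites; not every such gene is reported here. The script was tested on simulated data. Python 3.11.15, NumPy 2.4.6, pandas 2.3.3, SciPy 1.17.1 and matplotlib 3.10.9 were used. Alternatives were other score and coverage thresholds, bin sizes, merging of neighbouring sites and other chromosome sets.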

Additional observations from a re-analysis of the deposited data

Results flagged for a closer look

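The share of sites inside genes was picked out because the KO over WT odds in S differed between chromosome 1 and the other autosomes. In S 43.5% of KO and 52.8% of WT sites of chromosome 1 lay in a gene, against 53.1% of KO and 53.7% of WT sites on chromosomes 2 to 19. The ratio of the odds ratios, chromosome 1 over the rest, was 0.704 (Woolf interval 0.523 to 0.947). With sites under 1 kb apart counted as 1 it was 0.756 (0.549 to 1.04). In L it was 1.07 (0.771 to 1.49), but 1.67 (1.01 to 2.76) at coverage of 11 or more and 2.45 (1.02 to 5.84) at a score of 30 or more, both opposite in direction to S. The interval counts sites as independent, and the trait was 1 of 3 compared in 2 parts.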

How the results depend on the processing

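Of 179 alternatives, 124 kept the result, 42 moved it, 4 reversed it and 9 more kept the value but changed whether its interval left out no difference, as some of those that moved or reversed also did; the cause was not tested. The split at coverage of 11 and the alternatives for density, bins above the median, L over S odds and gene share were chosen after seeing the data. The odds ratio of chromosome 1, KO over WT, in L ran from 0.355 to 0.866 over 10 alternatives. All 10 reuse the lists in which the chromosome was chosen for this share, so values below 1 throughout are no separate support. The odds ratio was 0.866 with sites under 1 kb apart merged (0.722 to 1.04, which includes 1), 0.668 at a score of 30 or more (interval 0.424 to 1.04, which includes 1), 0.669 at coverage of 11 or more, 0.355 at coverage of 25 or more and 0.480 at an identification score of 20 or more. In S it lay between 0.751, at a score of 30 or more, and 0.984. With sites merged, the L odds ratio at high over low coverage was 0.760 (0.529 to 1.09) and the WT odds of L over S were 1.15 (0.994 to 1.33). Density over the other autosomes reversed in KO L at coverage of 25 or more (0.864) and at an identification score of 20 or more (0.937), and in KO S at a score of 30 or more (0.988) and at coverage of 25 or more (0.957). Its interval included 1 in KO L at a score of 30 or more (1.23) and in KO S at an identification score of 20 or more (1.23). It moved to 1.17 in KO L at coverage of 11 or more (0.954 to 1.42) and 1.15 in WT S at coverage of 25 or more (0.896 to 1.46), both intervals including 1, to 2.59 in WT L at coverage of 25 or more, and to 2.24 in WT L at an identification score of 20 or more. Uneven bins in L, 1 in all, numbered 0 with neighbouring sites merged, at a score of 30 or more, at coverage of 25 or more, and in bins of 10 or 20 Mb. Those in S, 3 in all, numbered 1 with sites merged and 0 at a score of 30 or more, at coverage of 25 or more and in bins of 20 Mb. They numbered 3 in bins of 10 Mb and 2 at coverage of 11 or more. The spread over bins in S was 0.906 with sites merged, 0.916 in bins of 20 Mb, 1.80 in bins of 10 Mb and 1.51 at coverage of 11 or more. The distal over proximal odds in S were 0.771 at a score of 30 or more and 1.69 at coverage of 25 or more. The AG difference, KO minus WT, was -5.71 points in L and -14.7 points in S at coverage of 25 or more, and 17.5 points in L at an identification score of 20 or more. The coverage ratio to the other autosomes was 0.731 in KO L, 0.867 in KO S and 0.889 in WT S at a score of 30 or more, and 0.714 in KO L, 1.12 in WT L, 1.07 in KO S and 0.889 in WT S at an identification score of 20 or more. The IPD ratio difference was 0.225 in KO S at a score of 30 or more, and 0.09 in KO L, -0.49 in WT L (-0.69 to -0.28) and 0.14 in WT S at an identification score of 20 or more. Bins above the median bin made up 76.9% in KO L and 79.5% in WT S without chromosomes 8 and 11, 75% in KO L in bins of 10 Mb, and 48.7% in KO S at coverage of 11 or more. The gene share ratio in L was 1.67 at coverage of 11 or more (1.01 to 2.76) and 2.45 at a score of 30 or more (1.02 to 5.84); in S it was 0.756 with sites merged (0.549 to 1.04), 0.566 at coverage of 11 or more and 0.829 at a score of 30 or more (0.407 to 1.69). No paired analysis was possible because the replicates of a group share 1 list. Leaving out a replicate was not possible for the same reason. Depth sets no floor here, since the coverage of uncalled bases is not listed.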
